A study of Mus musculus with 8 samples.

Results

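Narrow H2AK119ub peaks at gene ends that were called in control epidermal progenitors and met no peak in Eed cKO progenitors numbered 1033. They were chosen from the 4621 peaks of the control list by 3 conditions: a width under 8000 bp, 0 bp shared with any of the 2541 Eed cKO peaks, and overlap with the window of 2000 bp on either side of the start or end of a protein-coding gene. They made up 22.4% of the control list and 14.6% of the sequence it covered. The series profiled progenitors of the basal epidermis at postnatal day 0, sorted from back skin as EpCAM positive, Sca1 positive and high in α6-integrin. The groups used here were Eed cKO, labelled Eed-/-, with 2 H2AK119ub libraries, and control, also with 2, and each genotype was deposited as 1 peak list. The Cre driver, the alleles of the control mice, the sex of the mice and the handling of the 2 libraries per list are not stated in the sources used here.

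H2AK119ub is histone H2A carrying a single ubiquitin, placed by the RING1 ligases of Polycomb repressive complex 1 (PRC1), and it is known from genes that are silent or poised. EED belongs to the core of a second complex, PRC2, whose product is methylated H3K27. Canonical PRC1 binds that methyl mark through its CBX subunits, whereas variant PRC1 can reach CpG-rich promoters without it. In the epidermis Polycomb complexes are known for holding genes of other lineages silent, among them the genes of Merkel cells.

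The peaks carried positions only, with no score, so a peak is either called or not called, and the depth behind either list is unknown. Membership was set by both lists. The counts, widths and distances below therefore describe the chosen peaks, with no test. Replicate error could not be estimated from single lists. An absent Eed cKO call does not show that the mark was absent there. Among 28 genes of basal keratinocytes, 1 was marked in Eed cKO and 3 in control. Itga6, Epcam and Ly6a, the genes of the sort markers, and the basal keratinocyte genes Krt5, Krt14 and Trp63 had no peak at their ends in either list.

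The promoters under these peaks ran from CpG-free to very CpG-dense, and 7 are shown here because they span that range and belong to groups described below. Each is the 300-base stretch from 250 bases before to 50 after the annotated start, 5′ to 3′ on the gene's strand, from RefSeq on GRCm38.p6 (mm10), and lies whole inside a narrow control-only peak. Capitals mark CpG dinucleotides. The first 3 had the highest, the middle and the lowest CpG ratio. They belong to Arhgef7, a guanine nucleotide exchange factor gene (chr8:11727808-11728107, plus strand), Mdga2, a neuronal surface protein gene (chr12:67222500-67222799, minus strand), and Gp5, a platelet glycoprotein gene (chr16:30310732-30311031, minus strand).
Arhgef7: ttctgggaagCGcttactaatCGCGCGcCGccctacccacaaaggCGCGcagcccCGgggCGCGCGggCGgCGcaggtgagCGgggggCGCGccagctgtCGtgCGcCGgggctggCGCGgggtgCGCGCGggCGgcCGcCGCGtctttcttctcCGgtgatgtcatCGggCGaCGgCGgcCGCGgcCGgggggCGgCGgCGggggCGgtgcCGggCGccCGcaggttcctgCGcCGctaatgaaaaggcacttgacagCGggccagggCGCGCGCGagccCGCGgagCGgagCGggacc
Mdga2: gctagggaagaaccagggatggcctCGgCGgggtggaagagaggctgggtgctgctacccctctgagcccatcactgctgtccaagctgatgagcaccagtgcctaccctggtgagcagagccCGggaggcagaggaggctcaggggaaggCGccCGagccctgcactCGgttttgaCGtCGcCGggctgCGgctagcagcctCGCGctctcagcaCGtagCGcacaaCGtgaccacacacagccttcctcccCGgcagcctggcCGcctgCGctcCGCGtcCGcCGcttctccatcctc
Gp5: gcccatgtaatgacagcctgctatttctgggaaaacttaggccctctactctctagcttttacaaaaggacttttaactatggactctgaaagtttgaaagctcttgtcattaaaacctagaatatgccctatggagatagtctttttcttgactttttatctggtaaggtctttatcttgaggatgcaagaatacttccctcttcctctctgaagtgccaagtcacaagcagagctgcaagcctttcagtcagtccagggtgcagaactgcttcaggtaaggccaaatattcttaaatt
Arhgef7 held 54 CpGs in 300 bases, Mdga2 22 and Gp5 0. The observed over expected CpG ratio, which corrects for base composition, was 1.20 for Arhgef7, 0.64 for Mdga2 and 0 for Gp5.

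The other 4 promoters stand for the homeobox, ion channel, neurotransmitter receptor and signalling inhibitor genes: Msx2 (chr13:53472731-53473030, minus strand), Kcnc2 (chr10:112269767-112270066, plus strand), Adra2a (chr19:54045009-54045308, plus strand) and Shisa2 (chr14:59625031-59625330, plus strand).
Msx2: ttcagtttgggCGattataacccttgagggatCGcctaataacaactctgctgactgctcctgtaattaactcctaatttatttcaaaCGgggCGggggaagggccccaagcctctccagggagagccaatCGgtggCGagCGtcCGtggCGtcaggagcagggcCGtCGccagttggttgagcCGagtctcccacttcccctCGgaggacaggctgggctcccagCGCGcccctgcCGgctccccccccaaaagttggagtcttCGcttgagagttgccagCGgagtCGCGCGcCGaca
Kcnc2: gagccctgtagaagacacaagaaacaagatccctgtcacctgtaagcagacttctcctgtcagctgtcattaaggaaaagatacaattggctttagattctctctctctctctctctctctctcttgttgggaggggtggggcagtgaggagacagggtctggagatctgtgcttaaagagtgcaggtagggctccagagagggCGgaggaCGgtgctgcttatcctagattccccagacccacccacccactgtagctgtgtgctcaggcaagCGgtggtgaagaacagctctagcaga
Adra2a: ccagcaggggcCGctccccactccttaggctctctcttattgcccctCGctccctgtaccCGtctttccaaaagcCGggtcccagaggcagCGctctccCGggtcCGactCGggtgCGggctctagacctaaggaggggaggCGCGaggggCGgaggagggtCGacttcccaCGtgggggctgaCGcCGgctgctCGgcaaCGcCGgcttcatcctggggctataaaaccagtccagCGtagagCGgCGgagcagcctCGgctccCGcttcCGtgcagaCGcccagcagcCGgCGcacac
Shisa2: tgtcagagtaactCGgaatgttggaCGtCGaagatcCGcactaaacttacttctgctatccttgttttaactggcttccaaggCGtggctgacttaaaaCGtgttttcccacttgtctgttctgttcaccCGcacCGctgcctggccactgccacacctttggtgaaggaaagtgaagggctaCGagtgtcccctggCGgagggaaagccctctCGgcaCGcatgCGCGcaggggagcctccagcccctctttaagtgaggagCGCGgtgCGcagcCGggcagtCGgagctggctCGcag
Msx2 held 22 CpGs, Adra2a 28 and Shisa2 20, with ratios of 0.79 each. Kcnc2 held only 3, with a ratio of 0.15. In Adra2a the CpGs stood beside a TATAAA element, which the other 3 did not have.

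Most narrow control peaks at gene ends had no Eed cKO counterpart. Of 1651 such peaks, 1033 (62.6%) met no Eed cKO peak, a share close to the 62.1% of all 4621 control peaks. The same share was 72.7% for narrow control peaks away from gene ends (1484 of 2042) and 31.3% for gene-end peaks of at least 8000 bp (192 of 614). In the opposite direction, 257 of the 904 Eed cKO peaks under 8000 bp at gene ends (28.4%) met no control peak. The rule itself sets these shares.

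The control-only peaks were 646 to 7990 bp wide, with a median of 3968 bp and quartiles of 2645 and 5443 bp. The 618 narrow gene-end peaks that did meet an Eed cKO peak had a median of 4911 bp. The 257 peaks found in Eed cKO alone had a median of 3735 bp. Between 1000 and 5000 bp the share without an Eed cKO peak was 66.9% to 71.9% per 1000 bp class. It was 60.2% from 5000 to 6000 bp, 51.2% (44.5 to 57.8, 95% Wilson interval, counting error only) from 6000 to 7000 bp and 41.9% (34.7 to 49.5) from 7000 to 8000 bp. The control-only peaks thus thinned out toward the width limit, while the shared ones did not.

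**Figure D1:**
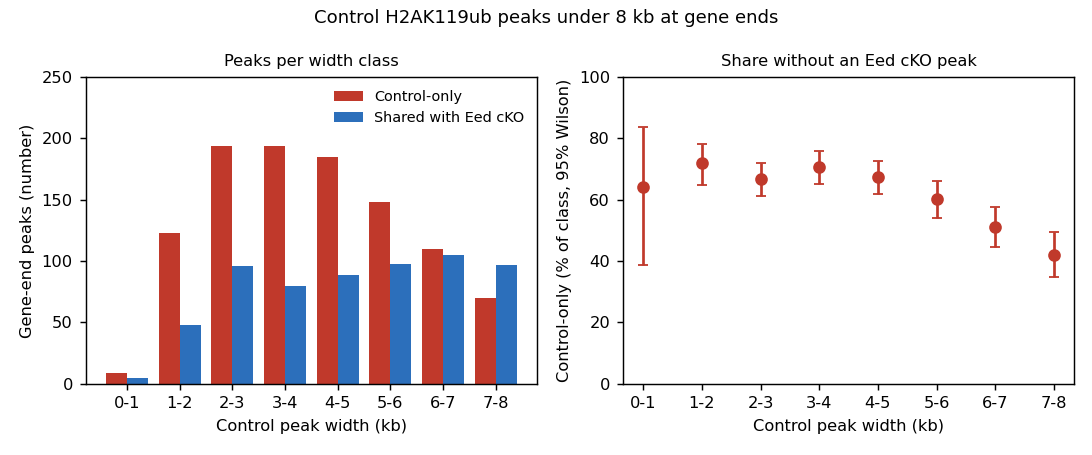
Left, the number of control H2AK119ub peaks under 8000 bp at gene ends per width class (kb), control-only in red and shared with Eed cKO in blue. Right, the control-only share of each class (%) with 95% Wilson intervals, which falls to 41.9% in the widest class.

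Among the 8 narrowest members were those at Uggt2, a glycoprotein folding enzyme gene (646 bp), Lcorl, which encodes a PRC2 partner (734 bp), and Itgb8, an integrin gene (858 bp). Among the 8 widest were those at Bmi1 (7990 bp, shared with Spag6 and Gm46725), Tnfaip8l3 (7959 bp), C1ql3, a synaptic adhesion gene (7937 bp), and Zeb1, an epithelial-mesenchymal transition regulator (7920 bp). Just beyond the limit, and so not members, were control-only peaks at Erbb4 (8003 bp), Hlf (8022 bp), Krt2 (8027 bp) and Wif1 (8035 bp). The limit thus divides peaks of like width.

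The peaks marked 1135 of 21887 protein-coding genes (5.19%), which is 44.5% of the 2550 genes with any control peak at an end. Most peaks, 890 of 1033 (86.2%), lay at 1 gene, 128 at 2 and 15 at 3. The joint peaks included neighbours such as Psca, Slurp1 and Them6, genes of the Ly6 region (7324 bp), and Chrna3 with Chrnb4. In turn, 54 genes had more than 1 such peak, and Tram1 and Cfap65 had 3 each. The 3 at Tram1, a gene for a protein of the endoplasmic reticulum membrane, were 2577, 3596 and 1969 bp wide.

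Peaks lay at gene starts far more often than at gene ends alone. Strand was known for a gene at 788 of the 1033 peaks. Of these, 675 (85.7%) reached the 2000 bp window of a gene start, and 113 (14.3%) lay only at the other end, as at Pax2, Bcan and Fgf3. The start base itself lay under 388 peaks (49.2%). Among narrow shared peaks 397 of 467 (85.0%) reached a start window and 54.6% covered the start base. Of peaks in Eed cKO alone, 77.4% reached a start window and 35.8% covered the start base. In control-only domains of at least 8000 bp, 79.7% covered the start base.

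The centres of the 675 peaks lay a median of 722 bp inside the gene, with quartiles at -446 and 1733 bp. The median edges of the peaks lay at -1457 and 2775 bp relative to the start. Coverage was 57.5% at the start base and reached 74.7% at 1300 bp into the gene, so more peaks covered the first part of the gene than its start. Narrow shared peaks were shaped alike, with 64.2% at the start and 78.6% at 1300 bp.

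**Figure D2:**
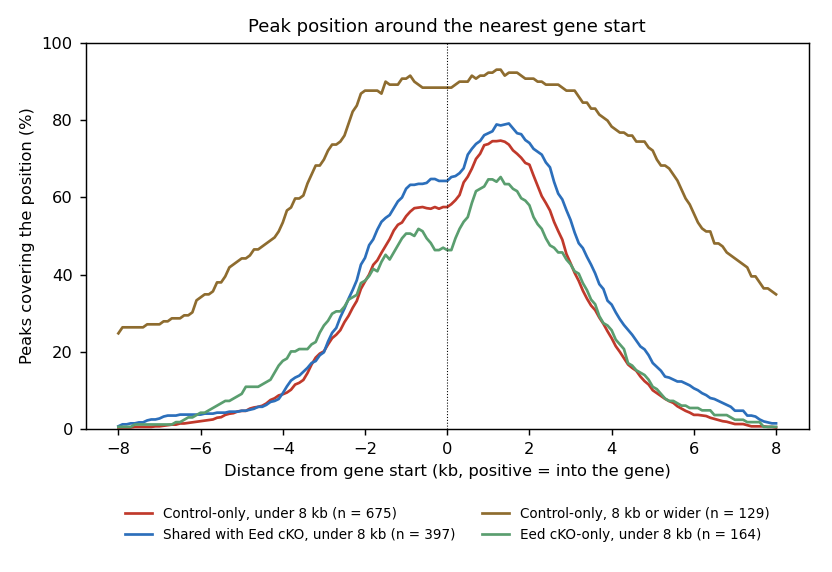
Percentage of peaks covering each position around the nearest gene start (kb, positive into the gene), for control-only peaks under 8 kb (red, n = 675), shared peaks under 8 kb (blue, n = 397), control-only peaks of 8 kb or wider (brown, n = 129) and Eed cKO-only peaks under 8 kb (green, n = 164). The red curve is 57.5% at the start and 74.7% at 1300 bp.

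Most members were far from any Eed cKO peak. The nearest one lay a median of 198 kb away, with quartiles of 38.5 and 761 kb. Within 5 kb there was one for 71 members (6.87%) and within 50 kb for 284 (27.5%), while 216 (20.9%) had none within 1 Mb. The 257 narrow gene-end peaks of Eed cKO alone lay a median of 53.9 kb from the nearest control peak, but the control list is the longer one, so these distances are not comparable. Against the same Eed cKO list, control-only gene-end peaks of at least 8000 bp lay a median of 276 kb away. For narrow control-only peaks away from gene ends the median was 90.4 kb. Another control peak lay within 50 kb of 446 members (43.2%), and a control peak shared with Eed cKO within 50 kb of 221 (21.4%).

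Among the 8 members nearest to an Eed cKO peak, the peak of Speg, a striated muscle kinase gene, was 236 bp from an Eed cKO peak, and that of Prr5 397 bp. The peak at Kcnj12, a potassium channel gene, was 643 bp from one, and that shared by Chrd and Thpo 949 bp. All 4 gaps were narrower than the peaks themselves. Among the 8 farthest were those at Cadm2, a neuronal adhesion gene (9208 kb), Tle1, a transcriptional corepressor gene (8773 kb), and Rspo3, a WNT pathway ligand gene (7702 kb).

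**Figure D3:**
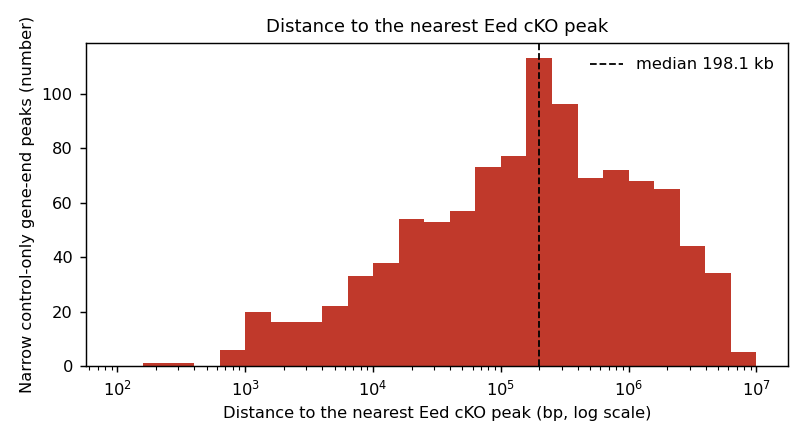
Distance from each of the 1033 narrow control-only gene-end peaks to the nearest Eed cKO peak (bp, log scale), with the median of 198 kb as a dashed line. Distances run from 236 bp at Speg to 9208 kb at Cadm2.

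Genes at these peaks came from all functional groups examined except leukocyte and housekeeping genes, and developmental regulators did not dominate them. Of the 1135 genes, 208 (18.3%) were in any of the 25 lists used, against 15.6% of all protein-coding genes. The lists included 1110 olfactory receptor, 394 Zfp and 73 ribosomal protein genes, of which 2, 11 and 1 were members. These shares therefore do not compare developmental genes alone. In 20 lists the share with such a peak was above the 5.19% of all genes, with no test made. The lists differed in the kind of control peak they had. Of homeobox genes other than Hox genes with a control peak, 9.01% (10 of 111) were at a narrow control-only peak, of Hox genes 9.38% (3 of 32), and of basic helix-loop-helix factors 13.6% (6 of 44). The share was 44.4% (28 of 63) for ion channels, 51.4% (19 of 37) for neurotransmitter receptors, 50.0% (12 of 24) for signalling inhibitors and 51.7% (30 of 58) for solute carriers. Over all control-marked genes it was 44.5%.

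**Figure D4:**
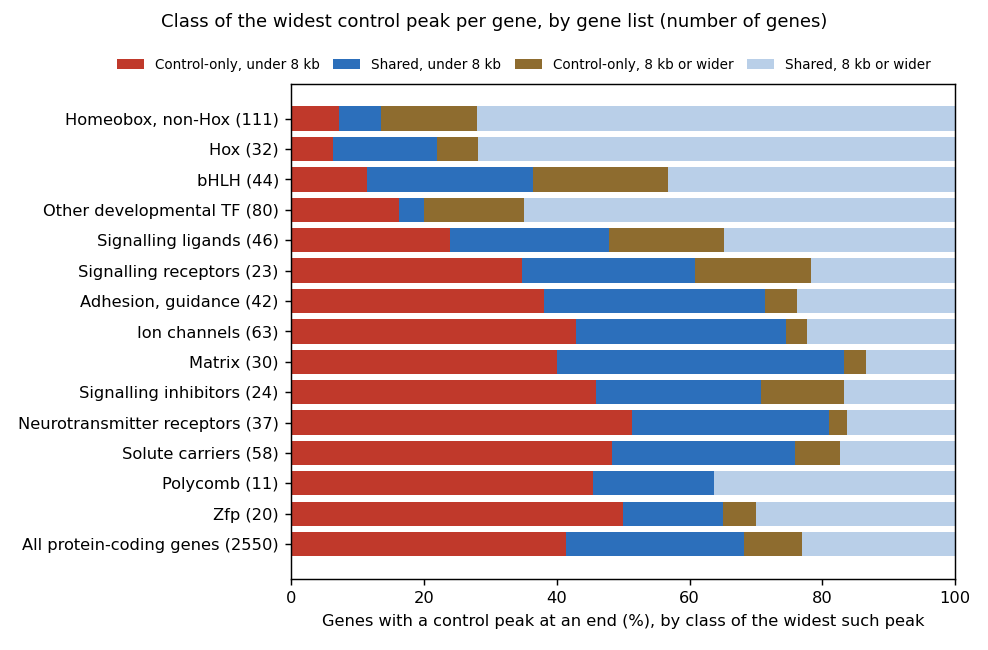
Genes with a control peak at an end, per gene list, split by the class of the widest such peak (% of the number in brackets). Control-only peaks under 8 kb (red) are the widest peak for 7.21% of marked homeobox genes, 51.4% of neurotransmitter receptor genes and 41.3% of all control-marked genes.

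For 72.1% of the control-marked homeobox genes the widest peak was a shared one of at least 8000 bp, against 23.1% of all control-marked genes. The 10 homeobox genes at narrow control-only peaks were Meis2, Msx2, Meis1, Cux2, Prrx2, Barx2, Dbx2, Pou3f1, Vsx1 and Lhx6. Meis1 and Meis2 encode cofactors of Hox proteins. Meis1 had 3 control peaks at its ends, of which 2, of 6314 and 5095 bp, were members. The remaining one was a control-only peak of at least 8000 bp, and so not a member. No Eed cKO peak lay within 2971 kb of the gene. Meis2 had peaks of 6923 and 6549 bp, but an Eed cKO peak lay inside its span. Msx2, a factor of skin appendages and limbs, had a 6418 bp peak (chr13:53471466-53477883), 195 kb from the nearest Eed cKO peak. Barx2, another epithelial factor, had a 5849 bp peak, and Cux2, a cortical neuron factor, one of 6151 bp. The median peak of the homeobox members was 5849 bp, against 3968 bp over all members.

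Among paired box, SRY box, forkhead, T-box, GATA and related factors, 18 genes (13.4%) were members, with a median peak width of 6135 bp. Tbx21, a T helper cell factor, had 7625 bp and Foxi3, a factor of ectodermal placodes, 7374 bp. Foxn4 had 7351 bp, Sox18, a vascular and hair factor, 7213 bp, and Foxj1, the factor for motile cilia, 6943 bp. Sox10, a neural crest and melanocyte factor, had 6397 bp and Sox8 6072 bp. The Pax2 peak, 7623 bp, lay only at the far end of the gene, which kept an Eed cKO peak of 23218 bp elsewhere at its ends. Hox members were few: Hoxc6 and Hoxc8 shared a 4256 bp peak, 1141 bp from an Eed cKO peak, and each gene had 1 Eed cKO peak at its ends. Hoxb1 had 3543 bp and none in Eed cKO. Of helix-loop-helix factors, 6 of 67 were members. Mesp1, an early heart mesoderm factor, had 6816 bp, Helt 6732 bp and Atoh7, a retinal factor, 4711 bp.

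Ligands, receptors and inhibitors of developmental signalling were members in 14 of 114 (12.3%), 8 of 69 (11.6%) and 12 of 52 (23.1%) cases. Of the control-marked genes in these lists, 30.4%, 34.8% and 50.0% were at members, against 44.5% of all control-marked genes. Among ligands, Fgf23, a bone hormone of phosphate balance, had 7568 bp. Fgf10, a ligand of limb and lung buds, had 4788 bp, and Fgf17, Fgf12 and Fgf3 brought the FGF genes to 5 of 22. This family was picked after its values were seen, against 5.19% of all genes, and 11 of the 22 had a control peak. Bmp6 had 4434 bp, 872 kb from an Eed cKO peak. Wnt2b had 6139 bp and an Eed cKO peak 1101 bp away. The R-spondin genes Rspo2 and Rspo3, which amplify WNT signals, had 4033 and 1539 bp, with the nearest Eed cKO peaks 4088 and 7702 kb away.

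Receptor genes with such a peak were Ntrk3, the neurotrophin-3 receptor gene (7653 bp), Notch3 (6306 bp), Kdr, a VEGF receptor gene (5866 bp), Kit (5446 bp), Gfra2 (5266 bp), Ret (2997 bp), Gfra3 (2374 bp) and Fgfr1 (2066 bp). Ret, Gfra2 and Gfra3 encode parts of GDNF family receptors. An Eed cKO peak at an end was found for 0 of the 8, for 4 of the 14 ligand genes (Gdf6, Gdf1, Bmp4 and Fgf3) and for 9.25% of all genes at members. Antagonists were represented for several pathways. Nog and Chrd, BMP antagonist genes, had 4346 and 3701 bp. Dkk1 and Frzb, WNT antagonist genes, had 3656 and 2801 bp, with the nearest Eed cKO peaks 1863 and 4384 kb away. Shisa2 and Shisa3, which hold back WNT and FGF receptors, had 7587 and 7076 bp, and Il17rd, an FGF pathway inhibitor gene, 6060 bp. Spry4, Dusp8 and Spred3 also had an Eed cKO peak at an end, and the other 9 inhibitor genes had none.

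Ion channels were members in 28 of 192 cases (14.6%), with a median peak of 4812 bp. Among control-marked genes their share at members, 44.4%, was close to the 44.5% of all control-marked genes. Kcnc2 and Kcna1, voltage-gated potassium channel genes, had 7672 and 6337 bp. Kcnma1, the gene of the large calcium-activated potassium channel, had 7518 bp and lay 1415 kb from the nearest Eed cKO peak. Kcng2 had 7332 bp, Trpc1, a cation channel gene, 7002 bp, and Cacna2d3, a calcium channel subunit gene, 5921 bp. Of the inward rectifier genes, a family picked after its values were seen, 5 of 15 were members, against 5.19% of all genes. A control peak was at an end of 6 of the 15. Scn8a, a sodium channel gene, had 5961 bp at its start and an Eed cKO peak of 18706 bp elsewhere at its ends. Kcnj12 and Scn8a were the members of this list that had an Eed cKO peak as well.

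Neurotransmitter and neuropeptide receptors were members in 19 of 137 cases (13.9%), with a median peak of 5044 bp. The α-adrenergic receptor genes Adra1d, Adra2a and Adra2c had 7823, 7704 and 3340 bp, which is 3 of the 6 genes of that kind. That family was picked after its values were seen, and 5.19% of all protein-coding genes were members. Of its 6 genes, 5 had a control peak and 2 an Eed cKO peak at an end. Adra1d had a further peak of 3266 bp, and an Eed cKO peak lay inside its span. Drd4 and Drd5, dopamine receptor genes, had 7553 and 2973 bp. Htr7, a serotonin receptor gene, had 6979 bp and Sstr1, a somatostatin receptor gene, 6399 bp. On chromosome 9, the nicotinic receptor cluster held a 5943 bp peak at Chrna5, a 4145 bp peak shared by Chrna3 and Chrnb4, and a 2168 bp peak at Chrnb4. The nearest Eed cKO peak was 487 kb from Chrnb4. Of the 19 genes, Grin2d had an Eed cKO peak at an end.

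Adhesion and axon guidance genes were members in 16 of 187 cases (8.56%), against 5.19% of all genes. Of the control-marked ones 38.1% were at members, against 44.5% of all control-marked genes. That share was 46.7% for matrix genes and 51.7% for solute carriers. Plxnc1, a semaphorin receptor gene, had 7775 bp, Unc5c, a netrin receptor gene, 6307 bp, and Epha3, an ephrin receptor gene, 5849 bp. The protocadherin genes were represented by Pcdhgc3. Matrix genes were members in 14 of 132 cases (10.6%), among them Col8a2 (6734 bp), the basement membrane gene Nid2 (6501 bp) and Lox, a collagen crosslinking enzyme gene (4089 bp). Solute carriers were members in 30 of 371 cases (8.09%). Slc7a8, an amino acid transporter gene, had 7216 bp and Slc2a4, the insulin-responsive glucose transporter gene, 5895 bp. Slc6a2 and Slc18a2, transporters of noradrenaline and of vesicular monoamines, had 4064 and 1841 bp.

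Epidermal genes were members at shares whose counting intervals included the 5.19% of all genes, on short lists and with no test. Of 28 basal keratinocyte genes 2 (7.14%) were members, Dst and Tfap2c. Dst, a hemidesmosome gene, was at a 4229 bp peak shared with Bend6. That peak lay at the outer start of the Dst gene span. A Bend6 promoter lay whole under it, and no Dst promoter did. Tfap2c, an epidermal factor, had 2023 bp. An Eed cKO peak lay 2.97 kb from the Tfap2c peak, inside the gene span. Of 38 suprabasal genes 3 (7.89%, 2.72 to 20.8) were members. Elovl4, an enzyme of barrier lipids, had 7283 bp, Notch3 6306 bp and Krt10, the keratin of differentiating layers, 2190 bp. The Krt10 peak lay at the outer start of the gene span, and no Krt10 promoter lay whole under it. This peak was 412 kb from the nearest Eed cKO peak. Over all 49 Krt genes, a family picked after its values were seen, 7 were members. Krt7, a simple epithelial keratin gene, had 3958 bp. Krt72, of the hair root sheath, had 3640 bp, and the hair keratin genes Krt83 and Krt84 had 3269 and 3155 bp. Krt82 had peaks of 5838 and 3540 bp, the wider shared with Krt90. These last 6 genes lie on chromosome 15.

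Merkel cell genes were members in 3 of 22 cases (13.6%, against 5.19% of all genes). These were Cck with 5743 bp, Dnajc6 with 4882 bp and Ncam1 with 3243 bp. Of the 22, 14 had any control peak at an end and 9 an Eed cKO peak. Members made up 21.4% of those 14, against 44.5% of all control-marked genes. For 8 of the 14 the widest control peak was a shared one of at least 8000 bp. Hair follicle genes were members in 6 of 37 (16.2%), or 26.1% of the 23 with a control peak. The 6 were Foxi3, Nfatc1 (6682 bp), Msx2, Barx2, Bmp4 (4189 bp) and Vdr, the vitamin D receptor gene (1836 bp). Nfatc1 and Bmp4 had an Eed cKO peak as well, of 7354 and 8373 bp. Dermal mesenchyme gave 2 of 26, or 18.2% of the 11 control-marked ones (Zeb1, 3788 kb from an Eed cKO peak, and Prrx2 with 5976 bp). Melanocyte genes gave 2 of 15, or 50.0% of the 4 control-marked ones (Sox10 and Kit). Of 20 leukocyte genes 0 were members, which allows a share of up to 15.0%, and of 32 housekeeping genes 0, which allows up to 9.38%. In both lists 0 genes had any control peak at an end, so no member was possible. An Eed cKO peak was at an end of 3 of the 32 housekeeping genes and of 0 leukocyte genes. Olfactory receptors were members in 2 of 1110 cases, Olfr543 and Olfr544 under 1 peak, Zfp genes in 11 of 394 (2.79%) and ribosomal protein genes in 1 of 73 (Rpl19).

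Among cell cycle genes, Cdkn1a, the p21 inhibitor gene, had a 3173 bp peak at its start (chr17:29091179-29094351), 74.6 kb from the nearest Eed cKO peak. Ccnd1, the cyclin D1 gene, had 3856 bp (chr7:144935806-144939661), with an Eed cKO peak 2303 bp away. These were the 2 members among 23 genes (8.7%, 2.42 to 26.8), against 5.19% of all genes. Of 48 Polycomb genes 6 (12.5%, 5.86 to 24.7) were members. Control peaks were at an end of 7 of the cell cycle genes and 11 of the Polycomb genes. Members made up 28.6% and 54.5% of these, against 44.5% of all control-marked genes. Bmi1, a PRC1 subunit gene, had a 7990 bp peak at its far end and a second, narrower one shared with Commd3. Pcgf2, which encodes a related subunit, had a 1977 bp peak, joint with Mllt6 and Cisd3. That peak lay beyond the far end of Pcgf2, within 2000 bp, and did not overlap the gene. Mga, a variant PRC1 gene, had 3727 bp and Lcorl 734 bp. Phc2, a PRC1 subunit gene, had 2238 bp and also an Eed cKO peak of 8581 bp. L3mbtl2 and Pcgf1 were not members: their control peaks, 8508 and 16811 bp wide, overlapped Eed cKO peaks.

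Some genes had a control-only peak and an Eed cKO peak as well. Of the 1135 genes, 105 (9.25%) had an Eed cKO peak at an end, and 76 of them were also at a control peak that the Eed cKO list shared. Over all 21887 protein-coding genes the share was 7.4% (1620), but only 11.7% of these had a control peak at an end. Among the 2550 genes with one, the widest was shared with Eed cKO for 26.9% (under 8000 bp) and 23.1% (8000 bp or wider). Membership required an unshared peak, so the rule bears on this comparison. Lfng, a Notch modifier gene, had a 4058 bp control-only peak at its start and an Eed cKO peak of 2058 bp. Nr4a2, a dopaminergic neuron factor, had 2439 bp and an Eed cKO peak of 9602 bp, and Runx3 3098 bp and 6530 bp. Counting Eed cKO peaks anywhere in the gene span as well, 170 genes (15.0%) had one and 965 (85.0%) had none.

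Promoters under the peaks were richer in CpG than promoters at large and a little poorer than those under shared peaks of the same width range. The 436 promoters of 389 genes that lay whole under a member had a median CpG ratio of 0.64 (0.60 to 0.68, 95% order-statistic interval). The median was 0.71 (0.69 to 0.76) for 308 promoters under narrow shared peaks, 0.72 (0.68 to 0.76) for 133 under control-only domains of at least 8000 bp, and 0.57 for all 21263 promoters. A ratio under 0.4 was found in 21.1% of member promoters, 15.3% of those under narrow shared peaks and 39.4% of all promoters. The median number of CpGs was 19 under members, 22 under narrow shared peaks and 13 over all promoters. The set was defined by peak calls, and no test of these differences was made. Member peaks were also narrower than the narrow shared ones, with medians of 3968 and 4911 bp. The member ratio was 0.61 with a width limit of 6000 bp and 0.69 with the widest 50% of the control list. Peaks of matched width were not compared.

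**Figure D5:**
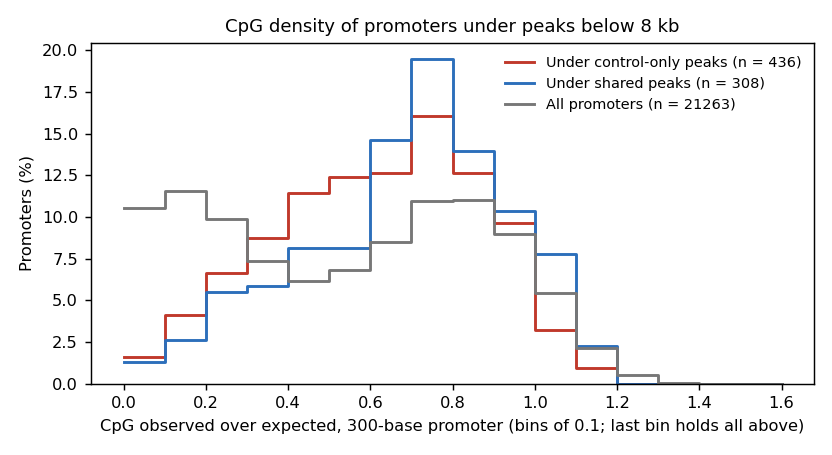
Distribution of the CpG observed over expected ratio in 300-base promoters lying whole under control-only peaks below 8 kb (red, n = 436) and shared peaks below 8 kb (blue, n = 308), with all promoters in grey (n = 21263). The medians are 0.64, 0.71 and 0.57.

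Short motifs were counted in the same 300-base promoters on both strands. GGGCGG, the GC box, was in 63.1% of member promoters, 62.3% of those under narrow shared peaks and 46.2% of all promoters. CGCGCG was in 83 of the 436 member promoters, 26.3% of those under narrow shared peaks and 15.2% of all promoters. TATAAA was in 9.63% of member promoters, 8.44% of those under narrow shared peaks and 12.6% of all. CCAAT was in 34.4% of member promoters, 28.9% of those under narrow shared peaks and 38.2% of all. CACGTG was in 7.57% of member promoters, 10.4% under narrow shared peaks and 7.84% of all, and TGANTCA, the AP-1 element, in 5.28% of member promoters, 5.84% under narrow shared peaks and 6.99% of all. A CGCGCG run can overlap a GC box, and both contain CpG, so these shares are not independent of the CpG ratio. Of the promoters printed above, Arhgef7, Msx2, Kcnc2 and Adra2a held the GC box, and Shisa2, Mdga2 and Gp5 held none of the 6 motifs.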

How the data were processed

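H2AK119ub ChIP-seq of sorted newborn mouse epidermal progenitors was deposited by the authors as 1 peak list per genotype, with chromosome, start and end on mm10 per the file headers and no score, so the values used are other quantities: positions and widths. Per the submitters' processing notes, tools included SAMtools 1.9 and Bowtie2 2.3.3.1. How peaks were called is not given in the sources used here. Read depth is unknown. Inputs (3) and the Ring1a/b 2KO library were not analysed here.

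Genes were the 21887 protein-coding genes of RefSeq on GRCm38.p6, and strand was known for 79.9% of them through the promoter table. Sharing needed 1 bp. Positions count from 1. The CpG ratio is CpG count times length over the product of C and G counts. Wilson intervals and limits for a count of 0 (3 counts) cover counting error only. The members and lists were chosen with earlier results of these data known. Named genes are, per list, up to 3 with the widest member peak, the extremes of width, distance and gene number, and a fixed set. Other genes were picked after their values were seen. Functions were tested on simulated data. Scripts ran in Python 3.11.15 with pandas 2.3.3, numpy 2.4.6, matplotlib 3.10.9 and scipy 1.17.1.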

Additional observations from a re-analysis of the deposited data

How the results depend on the processing

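The 1033 peaks and 1135 genes stayed within 1.5 times of these numbers under 9 of 11 alternatives, and the median distance to an Eed cKO peak and the share at gene starts moved beyond their intervals under 1 alternative each. The exceptions for the counts were the stricter lists. With the widest 50% of the control list, used since no score was given, 432 peaks at 497 genes remained, the control-only share was 54.0%, the median width 5745 bp and the median CpG ratio 0.69. With only the widest control peaks kept, equal in number to the Eed cKO list, the values were 520 peaks, 588 genes, 57.0% and 5437 bp. Both keep wider peaks by construction. A width limit of 6000 bp gave a control-only share of 67.2% and a median width of 3492 bp, and one of 10000 bp a median width of 4134 bp. A window of 5000 bp gave a median width of 3685 bp and 82.9% at gene starts. Counting an Eed cKO peak within 5000 bp as shared gave a control-only share of 58.3% and a median distance of 223 kb, and requiring 50% coverage a share of 65.1%. The number of lists above the share of all genes, 20, was the same with windows of 1000 and 5000 bp. No paired analysis was possible because each genotype has 1 list, with no values per library. For the same reason no library could be left out. Neither read depth nor signal height is known, and a smaller Eed cKO list cannot be told apart from a shallower one.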

Other observations

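Members were spread over all autosomes and X, from 14 peaks on X to 92 on chromosome 11. On X all 14 narrow control peaks at gene ends were control-only (100%, Wilson interval from 78.5%), with a median width of 2301 bp. On chromosome 17 the share was 50.0% (31 of 62, 37.9 to 62.1), the lowest of the autosomes, and on chromosome 18 it was 79.1% (34 of 43, 64.8 to 88.6), the highest. Mouse sex is not stated in the labels, and no test of these shares was made.

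An end of a long non-coding RNA gene lay within 2000 bp of 217 members (21.0%), against 21.4% of the narrow shared gene-end peaks and 22.5% of all control peaks. MicroRNA genes lay at 13 members (1.26%), against 1.13% of the narrow shared gene-end peaks and 1.41% of all control peaks. One of them, Mir375, a microRNA of endocrine and neuroendocrine cells, had its hairpin (chr1:74900658-74900721, minus strand) under a 1547 bp control-only peak at Cryba2 and Cfap65, 1.24 kb from an Eed cKO peak.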
